A study of Saccharomyces cerevisiae with 20 samples.

Results

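Gcn5 localisation after recovery from salt stress was compared with localisation before the stress, ORF by ORF, in *Saccharomyces cerevisiae* cells that carry a myc-tagged Gcn5. All ORFs listed in the Gcn5 files of both samples were taken, and 6678 of 6685 could be compared. Missing values removed 6 ORFs, and a value above 20 removed the other one. The comparison asks what returned to the level before stress and what did not.

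Cells of the BY4742 background (strain BQS1350, MATα, with the alleles lys2-0, ura3-0, leu2-0 and his3-1) with Gcn5-MYC13-KanMX6 at the GCN5 locus were grown at 30°C in YPD. Sample A was taken in log phase before the stress, sample B 1 hour after KCl was brought to 1 M and sample C after growth had adapted to KCl. Sample D was taken 1 hour after return to YPD without KCl, and sample E when 2 to 3 further generations had grown. All 5 samples share the tagged strain, so that no sample with untagged Gcn5 serves as background, and the 2 cultures of the methods, grown as different batches, are not kept apart in the files.

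Gcn5 is the catalytic subunit of the histone acetyltransferase complexes SAGA and ADA and acetylates lysines of histone H3, among them H3K18. SAGA is brought to promoters by activators and helps to assemble the transcription machinery, and Gcn5 has also been described over transcribed ORFs. Genes of the ribosome, of glycolysis and of the stress response are classical places to look for it in growing yeast.

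Immunoprecipitated DNA was hybridised to tiling arrays and set against input DNA. Each file divides every gene into 38 bins, with 9 before the ORF (5′IGR), 20 within it and 9 behind it (3′IGR), on a log scale whose base is not named in the sources used here. Values are therefore called log-scale units, and no folds are given. Each file was centred on its own median over all bins, which was -0.0559 for sample A and -0.0509 for sample E before centring, and the Gcn5 level of a region is the mean of its bins. There is 1 array per side, so that no replicate error, no test and no p-value can be given. A difference of 0.25 or more in the mean of a region was used as a fixed size in place of a call. The small number of arrays limits how precise any value is. The Gcn5 file of sample A held 2911 bins of exactly 0, in 1999 ORFs, and the other Gcn5 files held none. The H4K16ac file of sample E held 1325 such bins, in 1010 ORFs, and that of sample A held none. The reason for these values was not tested.

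Gcn5 after recovery lay close to Gcn5 before stress. In the 5′IGR, 70 ORFs (1.05% of all) were higher and 129 (1.93%) were lower by the chosen size in sample E. In the ORF 29 were higher (0.434%) and 36 lower (0.539%), and in the 3′IGR 139 were higher (2.08%) and 184 lower (2.76%). Either direction together made up 2.98%, 0.973% and 4.84% of ORFs. In all, 568 ORFs (8.51%) had such a difference in at least 1 region, and 1 ORF (0.0150%) had it in all 3. The excess of lower over higher ORFs depended on the scaling. After quantile normalization of the 5 Gcn5 files the split was 92 higher and 105 lower in the 5′IGR, 33 and 29 in the ORF, and 164 and 139 in the 3′IGR.

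The spread of the difference between E and A (SD over ORFs) was 0.109 in the 5′IGR, 0.0661 in the ORF and 0.120 in the 3′IGR. Pairs of files that include sample B had SDs of 0.168 to 0.209, 0.114 to 0.135 and 0.180 to 0.213 in the same regions. The 5 other pairs without sample B had SDs of 0.111 to 0.138, 0.0724 to 0.0886 and 0.120 to 0.134. Samples A and E were thus the nearest pair of files in the ORF. In the 5′IGR they were nearest only by a small margin over the pair of A and D (0.111), and in the 3′IGR that pair was as near. Pairs share arrays, so these SDs are a description. The levels themselves spread more widely over ORFs, with an SD in sample A of 0.267 in the 5′IGR, 0.195 in the ORF and 0.255 in the 3′IGR.

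The mean profile along the gene was also regained. In sample A the mean level was highest in the second bin of the ORF (0.0437) and lowest in the first bin of the 3′IGR (-0.0859). Sample E had its highest and lowest mean in the same bins, 0.0392 and -0.105. The mean difference between E and A stayed between -0.0190 and -0.0003 in all 38 bins. Sample B, by contrast, lay up to 0.199 above sample A in the 3′IGR.

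**Figure D1:**
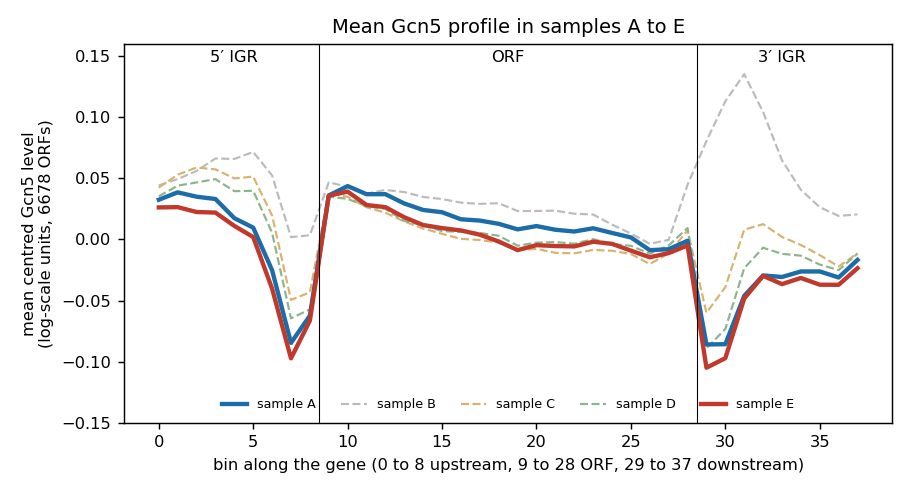
Mean centred Gcn5 level (log-scale units, 6678 ORFs) in each of the 38 bins along the gene, with samples A and E as thick lines and samples B, C and D as dashed lines. The lines of samples A and E differ by no more than 0.0190 in any bin, while sample B lies up to 0.199 above sample A in the 3′IGR.

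**Figure D2:**
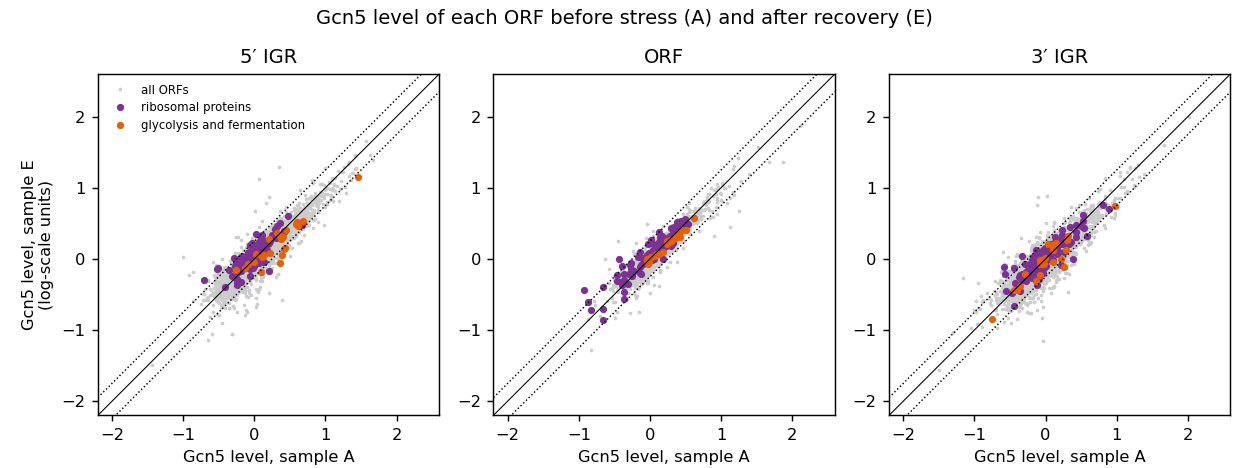
Gcn5 level of each of 6678 ORFs in sample E against sample A (log-scale units) in the 5′IGR, the ORF and the 3′IGR, 1 point per ORF. The solid line marks equal levels, dotted lines mark differences of 0.25, and 137 ribosomal protein genes and 25 genes of glycolysis and fermentation are coloured. Most ORFs lie between the dotted lines in every region.

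ORFs whose Gcn5 was displaced during the stress were followed to sample E. They were chosen as those whose level in sample B lay 0.25 or more above or below the mean of samples C and D, a choice that uses neither A nor E. In the 5′IGR, 510 ORFs (7.64%) were higher in sample B. Their median level was -0.015 in sample A, 0.347 in B, 0.010 in C, -0.045 in D and -0.061 in E. The 310 ORFs (4.64%) that were lower in sample B had medians of 0.265, -0.106, 0.244, 0.281 and 0.272 in samples A to E. In both sets sample E lay near sample A, on the other side of the sample B excursion.

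The median difference between E and A was -0.038 for the ORFs higher in sample B and 0.001 for those lower in it, beside -0.0056 for all ORFs. The difference between E and A was smaller than the distance of sample B from their mean in 93.7% of the first set and 93.9% of the second, against 70.1% of all ORFs. Sample B chose the sets, so the last comparison is a description. In the ORF, 141 ORFs higher in B had medians of -0.015 in A, 0.302 in B and -0.058 in E, and 132 lower in B had 0.252, -0.127 and 0.266. In the 3′IGR, 1052 ORFs higher in B had medians of -0.047, 0.296 and -0.081, and 193 lower in B had 0.210, -0.115 and 0.191. How many ORFs were displaced each way depended on the scaling. With values as deposited the split in the 5′IGR was 363 higher and 422 lower, in the ORF 105 and 174 and in the 3′IGR 797 and 248. After quantile normalization it was 282 and 535, 86 and 193, and 656 and 335.

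**Figure D3:**
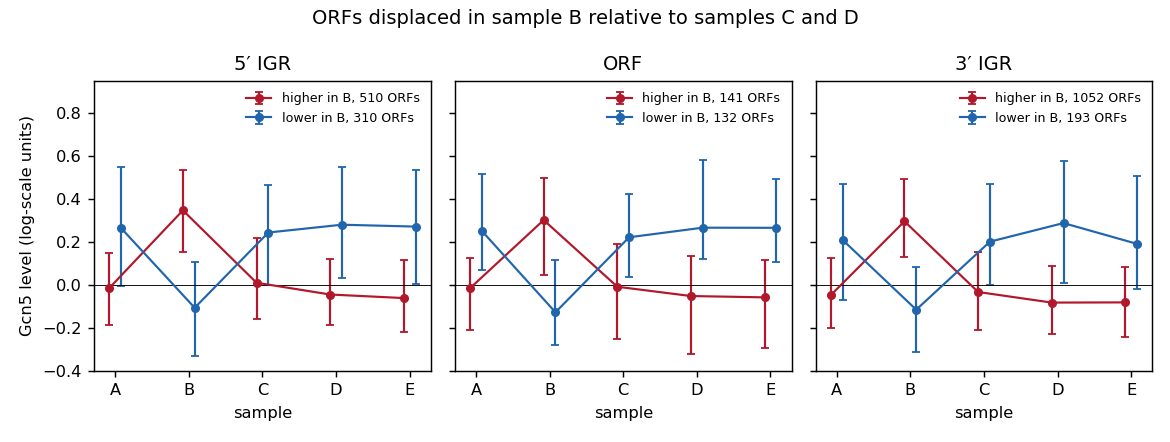
Median Gcn5 level (log-scale units) in samples A to E of the ORFs that lay 0.25 or more above or below the mean of samples C and D in sample B, in each region. Points are medians over ORFs and bars span the quartiles. In every region the medians of sample E lie within 0.05 of those of sample A.

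The return was not equally close for every displaced ORF. Among the 510 ORFs of the 5′IGR that were higher in B, 37 (7.25%) were lower and 16 (3.14%) higher in E than in A by the chosen size, beside 1.93% and 1.05% of all ORFs. The SD of the difference was 0.166 in this set and 0.109 over all ORFs. CTR3, a copper transporter of the plasma membrane, had 5′IGR levels of -1.44, -0.25, -1.24, -1.47 and -1.49 in samples A to E. It stood high in sample B and was back near its first level in sample E. INP1, which keeps peroxisomes in the mother cell, had -0.25, 0.64, -0.20, -0.19 and -0.34. SPO75, needed for sporulation, had 0.18, 0.77, 0.15, -0.18 and -0.16 and ended below its level before stress, a difference of -0.35.

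Among the ORFs that were lower in B, HST2, a sirtuin deacetylase, had 5′IGR levels of 1.03, -0.14, 0.72, 0.81 and 0.91 in samples A to E. FET3, the multicopper oxidase of high-affinity iron uptake, had 0.67, -0.33, 0.37, 0.51 and 0.47, and its level in E was -0.20 relative to A. HXT3, a low-affinity glucose transporter, had -0.12, -0.77, 0.03, -0.06 and 0.06. Each of these genes had its lowest level in sample B. In the 3′IGR of EFT1, which encodes elongation factor 2, the levels were 0.06, 1.29, 0.17, 0.28 and -0.05, and only sample B stood apart. EFT1 has a near-identical coding copy, EFT2, elsewhere in the genome.

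The genes of cytoplasmic ribosomal proteins had higher Gcn5 after recovery than before stress in most members. Of 137 members, 106 (77.4%) had a higher 5′IGR level in E than in A, against 47.1% of all ORFs, and the median difference was 0.058, against -0.0056. By the chosen size 7 members (5.11%) were higher and 1 (0.730%) lower, beside 1.05% and 1.93% of all ORFs. In the ORF the median was 0.034, against -0.0089 for all ORFs, with 98 members (71.5%) above 0, against 41.5%. There 7 members (5.11%) were higher and none lower by the chosen size, beside 0.434% and 0.539% of all ORFs. In the 3′IGR the median was 0.038, against -0.0045. There 5 members (3.65%) were higher and 3 (2.19%) lower, near the 2.08% and 2.76% of all ORFs. Of 25 lists with at least 10 members, the ribosomal protein list had the highest median in each region.

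The median 5′IGR level of this list was -0.011 in sample A, 0.149 in B, 0.187 in C, -0.018 in D and 0.047 in E. Samples B and C in KCl were thus the high ones, samples A and D the low ones, and sample E lay between them. Sample A was the lowest of the 5 samples in 55 members (40.1%), against 19.4% of all ORFs. At least 1 bin of exactly 0 in sample A fell in the 5′IGR of 11 members. When every ORF with such a bin in any region was left out the median became 0.055 and 3 members remained higher by the chosen size.

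RPL6A, a protein of the large subunit, had the largest difference of the list in the 5′IGR. Its levels were -0.71 in sample A, -0.22 in B, -0.08 in C, -0.47 in D and -0.30 in E, a difference between E and A of 0.40 with the same sign in all 9 bins. RPL8A, also of the large subunit, had -0.51, 0.13, 0.07, -0.20 and -0.13. In both genes sample A was the lowest sample. At the other end RPL18B had 0.21, 0.25, 0.28, 0.19 and -0.16, with only sample E low, and RPL28 had 0.67, 0.63, 0.91, 0.44 and 0.48.

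In the ORF, RPS27B of the small subunit had levels of -0.92, 0.02, -0.55, -1.20 and -0.44 in samples A to E. RPL16B had -0.43, -0.09, 0.08, -0.24 and 0.00. Both were higher in E than in A and D and reached their highest level in KCl. The lowest differences in the ORF were those of RPL20A (-0.37 in A and -0.57 in E) and RPL20B (-0.67 and -0.86). RPL20A and RPL20B, like many ribosomal protein genes, form a pair of near-identical copies that can share probes. Members are therefore not independent of each other.

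H3K18ac and H3 also differed from all ORFs at the ribosomal protein genes, while H4K16ac in the 5′IGR did not. The median difference between E and A in the 5′IGR was 0.101 for H3K18ac, against -0.033 over all ORFs, and -0.135 for H3, against 0.053. For H4K16ac it was -0.020, against -0.019, with the bins of exactly 0 in sample E included. In the ORF the H3K18ac median was 0.134, against 0.016, and the H3 median was -0.088, against 0.028. With H3 subtracted bin by bin the Gcn5 median of the list was 0.194 in the 5′IGR and 0.131 in the ORF. The part of H3 in the Gcn5 difference was not tested.

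Genes of glycolysis and alcoholic fermentation had lower Gcn5 in the 5′IGR after recovery. Of 25 members 19 (76.0%) were lower in E than in A, against 52.9% of all ORFs, with a median difference of -0.085. By the chosen size 6 members (24.0%) were lower and none higher, beside 1.93% and 1.05% of all ORFs. The median level was 0.37 in sample A, 0.35 in B, 0.30 in C, 0.44 in D and 0.15 in E. Sample E was the low one, and it was the lowest of the 5 samples in 12 members (48.0%), against 26.9% of all ORFs. In the ORF the median difference was -0.040 and no member reached the chosen size, and in the 3′IGR the median was -0.020, with 1 member lower.

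The 6 lower members include PFK2 and PFK1, which encode both subunits of phosphofructokinase. PFK2 had 5′IGR levels of 0.37, 0.92, 0.51, 0.20 and -0.06 in samples A to E, and PFK1 had 0.42, 1.12, 0.99, 0.47 and 0.13. Both were high in KCl and lowest in sample E. TPI1, triose phosphate isomerase, had 0.39, -0.16, 0.22, 0.50 and 0.06. GLK1, glucokinase, had the highest levels of the list, 1.46, 1.38, 1.32, 1.57 and 1.15. PGK1, phosphoglycerate kinase, had 0.43, 0.30, 0.28, 0.39 and 0.15. CDC19, the main pyruvate kinase, had 0.09, 0.41, 0.07, 0.21 and -0.18. In all of these except TPI1, sample E was the lowest sample.

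The members with the largest differences upward stayed below the chosen size. TDH2, a glyceraldehyde-3-phosphate dehydrogenase with near-identical copies, had 5′IGR levels of -0.26 in A and -0.15 in E, and PYK2, the minor pyruvate kinase, had 0.20 and 0.28. The list's median differences for the other antibodies in the 5′IGR were -0.122 for H3K18ac and -0.098 for H3, against -0.033 and 0.053 over all ORFs. With H3 subtracted the direction of the Gcn5 median turned, to 0.029. By medians over the bins of a region, or without ORFs that have a bin of exactly 0, only 2 members were lower by the chosen size. The list had high levels, and over all ORFs the fifth with the highest level in samples C and D had a median difference of -0.028.

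Glucose uptake genes stood near glycolysis in the order of the lists. The 22 hexose transporters and their regulators had a median 5′IGR difference of -0.082, with 3 members (13.6%) lower by the chosen size and none higher, beside 1.93% and 1.05% of all ORFs. HXT7, a high-affinity glucose transporter, had levels of 0.82, 0.69, 0.55, 1.08 and 0.44 in samples A to E, with sample E lowest. GAL2, the galactose permease, had 0.20, -0.08, -0.03, 0.25 and -0.09. HXT6, a near-identical neighbour of HXT7, had 0.35, 0.48, 0.21, 0.33 and 0.09. HXT1, a low-affinity transporter, went the other way with -0.42, -0.62, 0.07, -0.25 and -0.18, a difference of 0.24. H3K18ac in the 5′IGR of these genes had a median difference of -0.194.

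Histone genes had the lowest median of the 25 lists in each region. Of 11 members 10 (90.9%) were lower in E than in A in the 5′IGR, against 52.9% of all ORFs, with a median difference of -0.095. By the chosen size 1 (9.09%) was lower and none higher, beside 1.93% and 1.05% of all ORFs. That member was HHF2, a histone H4 gene, with levels of 1.67, 1.40, 1.49, 1.47 and 1.39. Sample A was the highest sample at HHF2, and sample B and sample E were the lowest. The median level of the list was 0.708 in A, 0.206 in B, 0.609 in C, 0.605 in D and 0.563 in E, so that only sample B was far below the others. Removal of the trend with level brought the median to -0.038, and subtraction of H3 brought it to 0.0050. HHF1 and HHF2, and the other histone pairs, are near-identical in their coding sequence. By their locus names HTA1 and HTB1, HTA2 and HTB2, HHT1 and HHF1, and HHT2 and HHF2 are neighbours on opposite strands with adjoining 5′IGRs. Their 5′IGR values are therefore not independent of each other.

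**Figure D4:**
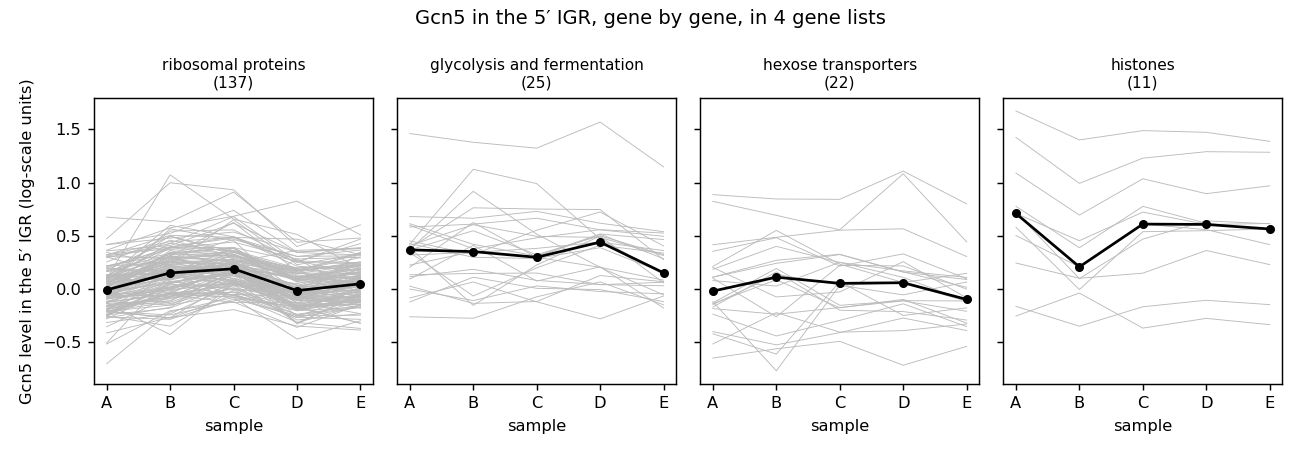
Gcn5 level in the 5′IGR (log-scale units) in samples A to E for the ribosomal protein, glycolysis and fermentation, hexose transporter and histone lists, with 1 grey line per gene and the median in black. For ribosomal proteins the median of sample E (0.047) lies between those of samples A and C, and for glycolysis the median of sample E (0.15) is the lowest of the 5.

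Among the other lists, trehalose and glycogen metabolism had a median 5′IGR difference of -0.068, with 13 of 18 members (72.2%) below 0. Mating pheromone response had -0.044, with 28 of 39 (71.8%) below 0, against 52.9% of all ORFs. For the counts by the chosen size that follow, the shares of all ORFs were 1.93% lower and 1.05% higher. In the 5′IGR the phosphate regulon came next to the ribosomal proteins with a median of 0.039, and no member of it reached the chosen size. The 61 genes of heat shock and general stress had a median of -0.0061, with 3 (4.92%) lower and none higher. The 32 genes of glycerol synthesis and the HOG pathway, which answers to high osmolarity, had -0.013, with 2 (6.25%) lower and none higher. The 29 genes of potassium and cation transport had -0.022, with 1 (3.45%) higher and none lower. The 22 subunits of SAGA and ADA had -0.020 and no member past the chosen size. The 76 genes of amino acid biosynthesis had 0.017, with 1 higher and 1 lower (1.32% each), near the shares of all ORFs. HOM2, aspartate semialdehyde dehydrogenase, was the lower one and had the lowest difference of any 5′IGR. Its levels were 0.39, -0.01, 0.24, -0.49 and -0.57 in samples A to E, low in both D and E. It did not meet all the conditions by which single ORFs are named below.

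**Figure D5:**
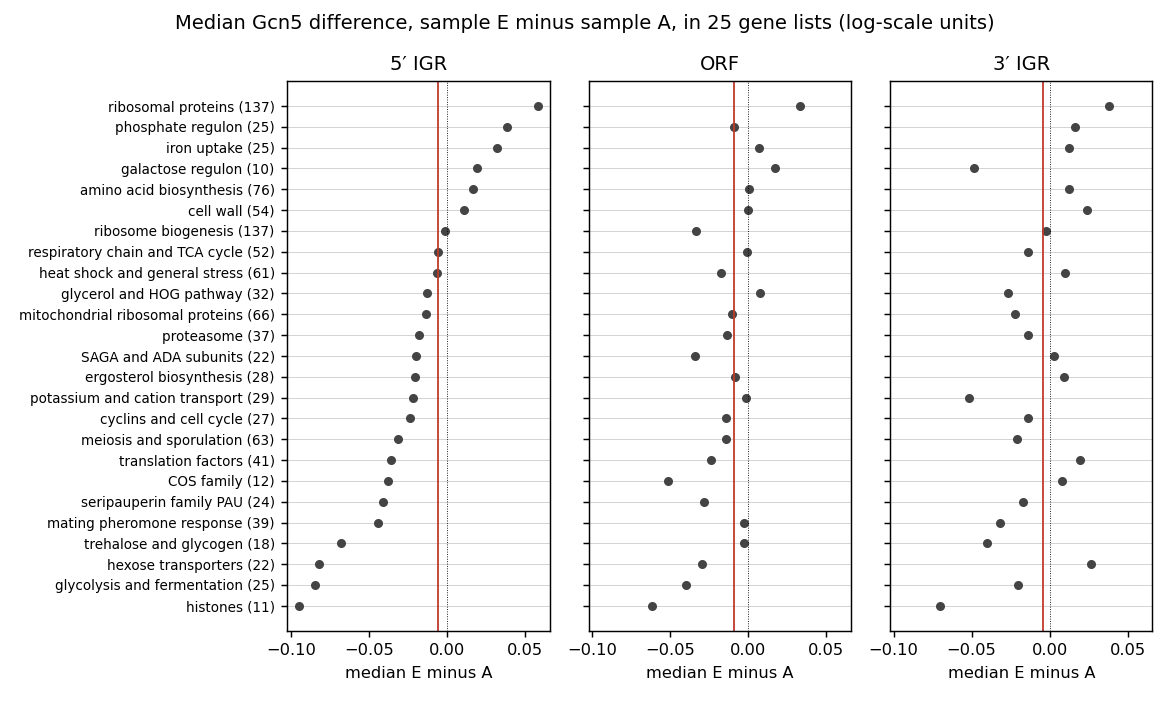
Median difference in Gcn5 between sample E and sample A (log-scale units) for 25 gene lists with 10 or more members, with the number of members in parentheses, in the 5′IGR, the ORF and the 3′IGR. The red line is the median of all 6678 ORFs, and the ribosomal protein list lies farthest to the right in each region, at 0.058, 0.034 and 0.038.

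Single ORFs were named from genes with no overlap, no bin of exactly 0 and the same sign of the difference in every bin of the region. In the 5′IGR 149 genes met these conditions, and 14 were higher and 14 lower by the chosen size. ITC1, a subunit of the Isw2 chromatin remodelling complex, was highest by this rule, with levels of -0.91, 0.31, -0.02, 0.12 and -0.23 in samples A to E, a difference of 0.68. Sample A stood far below all others. VCX1, the vacuolar exchanger of calcium and protons, had -0.04, 0.11, 0.51, 0.27 and 0.29, again with sample A lowest. CYC3, which attaches haem to cytochrome c, had 0.64, 1.02, 0.70, 0.75 and 0.97, with A lowest and B and E highest. PRM3, a pheromone-regulated protein of nuclear fusion, had -0.56, -0.56, -0.36, -0.41 and -0.23. At CYC3 the neighbouring gene upstream is CDC19.

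Among the lower genes of the 5′IGR, YMR030W-A had 0.21, 0.45, 0.00, 0.07 and -0.49, a difference of -0.70. Its upstream neighbour is HOF1, 5 bp away in the gene table, so that few probes can lie in this 5′IGR. SPS4, a sporulation gene, had 0.11, 0.19, 0.04, -0.07 and -0.31. CTL1, an RNA 5′-triphosphatase, had 0.66, 1.19, 0.63, 0.41 and 0.25. GIS1, a transcription factor of nutrient limitation, had 0.90, 0.88, 0.84, 0.90 and 0.51. In each of these genes, as in HXT7, sample E was the lowest sample. H3K18ac was lower too at GIS1 (-0.38), CTL1 (-0.34) and HXT7 (-0.69), and differed little at YMR030W-A (0.0042) and SPS4 (-0.059).

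In the ORF 38 genes met the conditions, with 5 higher and 2 lower by the chosen size. GPI15, of glycosylphosphatidylinositol anchor synthesis, had levels of -0.37, -0.40, -0.21, -0.19 and -0.09 in samples A to E. YCR025C had 0.18, -0.16, 0.15, 0.26 and 0.46. In both sample E was the highest sample. The remaining ORFs, YER078W-A, YKL106C-A and YOR302W, had differences of 0.34, 0.27 and 0.26 and are 165, 120 and 78 bp long, so that few probes can lie in them.

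PRE3, a catalytic subunit of the proteasome, had the lowest ORF difference among these genes, with levels of 0.15, 0.05, -0.13, -0.11 and -0.16. YSC84, an actin-binding protein of endocytosis, had -0.05, 0.12, -0.12, -0.16 and -0.34. HAC1, the transcription factor of the unfolded protein response, had the high levels of 2.13, 3.04, 2.11, 1.77 and 1.89, and its difference of -0.24 did not reach the chosen size. ECM9, at -0.21, and TFC3, the largest subunit of TFIIIC, at -0.18, were also short of it. At PRE3, ECM9 and TFC3 samples C, D and E lay together below sample A.

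In the 3′IGR 135 genes met the conditions, with 16 higher and 16 lower. PRD1, a metalloendopeptidase, had levels of -1.16, 0.40, 0.11, -0.17 and -0.26 in samples A to E, a difference of 0.89, with sample A far below the others. Its downstream neighbour PEX34 is 18 bp away, so that few probes can lie in this 3′IGR. SDH2, the iron-sulfur subunit of succinate dehydrogenase, had -0.48, 0.00, -0.40, -0.18 and -0.11. YNK1, nucleoside diphosphate kinase, had 0.10, 0.64, 0.18, 0.23 and 0.47, and SES1, seryl-tRNA synthetase, had -0.60, -0.47, -0.15, -0.48 and -0.24. YPR145C-A had -0.24, -0.12, 0.13, -0.35 and 0.25. The order of samples differed from gene to gene, and sample A was lowest in PRD1, SDH2, YNK1 and SES1.

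The lowest 3′IGR difference of all ORFs was that of HOF1, a protein of cytokinesis, with -0.03, 0.29, -0.37, -0.56 and -1.15, a difference of -1.12. Its downstream neighbour is YMR030W-A, 5 bp away, whose 5′IGR is described above. Both regions lie in the same gap, so they are not separate results and few probes can lie in them. DOM34, which rescues stalled ribosomes, had 0.32, -0.04, -0.06, -0.35 and -0.47. YCF1, a vacuolar transporter of glutathione conjugates, had 0.84, 0.65, 0.78, 0.97 and 0.44. PRI2, the large subunit of DNA primase, had 0.96, 0.48, 0.56, 0.53 and 0.57, and YCL001W-B had 0.31, 0.23, -0.07, 0.10 and -0.20. At PRI2 sample A alone was high, and at HOF1, DOM34, YCF1 and YCL001W-B sample E was the lowest. The H3 difference was 1.30 at HOF1, -2.70 at DOM34 and -0.84 at YCL001W-B. With H3 subtracted the Gcn5 difference of DOM34 turned to 1.92. By the arm letters of the locus names, the gaps behind DOM34 (YNL001W to YNR001C) and YCL001W-B (to YCR001W) span a centromere. These 2 regions are therefore not ordinary gaps between genes, and the part of the centromere in their values was not tested.

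Which of the samples stood apart depended on the direction of the difference. Of the 129 ORFs with a lower 5′IGR, sample E lay outside the range of the other 4 samples in 105 (81.4%) and sample A in 33 (25.6%). Of the 70 with a higher 5′IGR, sample A lay outside in 53 (75.7%) and sample E in 24 (34.3%). A large difference by itself puts A or E at the edge of the range, so these shares are a description of the chosen ORFs. Samples C and D had their mean nearer E than A in 71.4% of the higher ORFs and in 22.5% of the lower ones, against 46.7% of all. In the 3′IGR these shares were 71.9%, 29.3% and 48.3%.

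Gene length had a small relation to the difference in the ORF. Genes under 1 kb (2395) had a mean difference between E and A of -0.0044, and those of 1 to 2 kb (2266) had -0.0089. The mean was -0.0131 at 2 to 3 kb (798 genes) and -0.0234 above 3 kb (526 genes). Of the longest genes 71.3% were below 0, against 53.4% of the shortest, and none reached the chosen size in the ORF. Between the longest and the shortest class the mean level differed by -0.115 in sample A, -0.0666 in B, -0.126 in C, -0.124 in D and -0.134 in E. Sample B stood apart. Sample E differed from sample A by -0.0190, on the side away from B, and samples C and D lay between them.

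Differences were more frequent where sample A held bins of exactly 0. ORFs with a 5′IGR bin of exactly 0 in sample A (676) were higher in 2.66% and lower in 4.73%, against 0.866% and 1.62% of ORFs with none. In the 3′IGR, with 1280 such ORFs, the shares were 4.06% and 4.30%, against 1.61% and 2.39%. The part of these bins in the differences was not tested beyond leaving them out. With them left out of the region means, a setting chosen after the data had been seen, 76 ORFs were higher and 144 lower in the 5′IGR. Protein-coding genes whose upstream neighbour is a tRNA gene (316) had a lower 5′IGR in 3.48% and a higher one in 1.27%, against 1.82% and 1.06% of those next to a protein-coding gene. Where the 3′IGR neighbour was a tRNA gene (223) 6.28% were lower, against 2.67%.

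The histone antibodies were read at the ORFs chosen by Gcn5. H3K18ac differed by 0.25 or more between E and A in either direction in 9.04% of ORFs in the 5′IGR, 2.53% in the ORF and 13.0% in the 3′IGR. The shares were 3.74%, 1.65% and 6.36% for H4K16ac and 19.8%, 5.86% and 21.6% for H3. Where Gcn5 was lower in the 5′IGR, H3K18ac had a median difference of -0.148, against -0.033 over all ORFs, and 95 of 129 ORFs were below that overall median. Where Gcn5 was higher the H3K18ac median was -0.047, and 33 of 70 ORFs were above the overall median. In the 3′IGR the medians were -0.112 where Gcn5 was lower and -0.082 where it was higher, against -0.038 over all ORFs. H3K18ac thus lay below its overall median where Gcn5 was lower but not above it where Gcn5 was higher.

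H4K16ac had a median 5′IGR difference of -0.089 at the ORFs with lower Gcn5, with 91 of 129 below the overall median of -0.019, and -0.060 at those with higher Gcn5. For H3 the medians were 0.041 and 0.055, against 0.053. Across the 6678 ORFs the Spearman correlation of the Gcn5 difference with the H3K18ac difference was 0.163 in the 5′IGR, 0.192 in the ORF and 0.114 in the 3′IGR. With H4K16ac it was 0.037, 0.020 and 0.022, and with H3 it was 0.0093, 0.025 and 0.027. The H4K16ac values include the bins of exactly 0 in sample E. ORFs are not independent replicates, and neighbouring ORFs share probes and intergenic regions.

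GCN5 itself had levels in its ORF of 0.07, 0.06, 0.02, 0.07 and -0.02 in samples A to E and differences of -0.11 in the 5′IGR and 0.0062 in the 3′IGR. At the loci that are mutant in the strain no region differed by the chosen size. The ORF level was 0.0082 in A and 0.145 in E at LYS2, 0.148 and 0.148 at LEU2, 0.074 and 0.179 at URA3, and 0.320 and 0.378 at HIS3. These levels are ratios to input and lie within the range of other ORFs, so that absence of the DNA could not be checked from them.

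The authors also ran quantitative PCR of Gcn5 at 7 genes. It compared sample B with sample A only, so it does not bear on sample E. MYO1, BUD2, CHS1 and OSW2 were the long genes tested, and the others were controls. On the arrays most of their levels in sample E lay within the chosen size of sample A. In the ORF 6 of the 7 genes (85.7%) were lower in E than in A, against 58.5% of all ORFs. Sample E was the lowest sample there in 4 genes (57.1%), against 22% of all ORFs. The region quoted here differs from gene to gene. STI1, an Hsp90 cochaperone, had 3′IGR levels of 0.40, 1.49, 1.02, 0.61 and 0.34, high in B and C and lowest in E. MYO1, the myosin of cytokinesis, had ORF levels of -0.03, 0.11, -0.01, 0.01 and -0.06, and BUD2, a GTPase-activating protein of bud site selection, had -0.21, 0.06, -0.23, -0.33 and -0.28. In both only sample B was raised. OSW2, a spore wall gene, had ORF levels of 0.14, 0.35, 0.01, 0.20 and -0.16, a difference of -0.30. ACT1, actin, had 5′IGR levels of 0.46, 0.48, 0.50, 0.32 and 0.20, a difference of -0.25. CHS1, a chitin synthase, had ORF levels of 0.12, 0.17, 0.07, 0.08 and 0.16, so that sample E lay near sample B there. Its 5′IGR levels were 0.31, 0.66, 0.40, 0.60 and 0.51. ZWF1, glucose-6-phosphate dehydrogenase, had 5′IGR levels of 0.71, 0.66, 0.83, 0.67 and 0.70. OSW2 in the ORF and ACT1 in the 5′IGR were the ones past the chosen size.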

How the data were processed

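ChIP-chip on Affymetrix tiling arrays was run by the authors, who computed the signal against input with Affymetrix Tiling Analysis Software, brought the samples to the same median and averaged it over 38 bins per ORF. Values were deposited as a score on a log scale. Neither its base nor the genome build is given in the sources used here. Of 20 files 11 were used, namely the 5 Gcn5 files and the files of samples A and E for H3K18ac, H4K16ac and H3. For H3K18ac and H3 the methods give the same antibody catalogue number.

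Files were centred on their medians, region means were taken over 9, 20 and 9 bins, and E minus A was computed for 6678 ORFs. The RefSeq table of assembly R64 held 6003 of these and gave names, lengths and neighbours only. Functions were tested on simulated data. Genes were named as the 5 largest and 5 smallest differences per region among nuclear protein-coding genes without overlap, at least 20 kb from a chromosome end, with no bin of exactly 0 or midway between its neighbours and with 1 sign in every bin. GCN5, the mutant loci, the genes of quantitative PCR, and the 2 largest and 2 smallest members of each list described were added. Genes named beside these were chosen after their values were seen, namely the further glycolytic genes that reached the chosen size, HXT6, and the displaced ORFs. Ribosomal proteins were matched by symbol. Gene lists and ORFs were chosen with earlier results of these data known. Alternatives covered the scaling, the ORFs and bins included, the size, and subtraction of H3. Python 3.11.15 with numpy, pandas, statsmodels and matplotlib was used.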

Additional observations from a re-analysis of the deposited data

How the results depend on the processing

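Of 874 values recomputed under 13 alternatives 698 stayed within the bounds set, 171 moved further and 5 single-gene differences past 0.25 turned their direction. The bound was a factor of 1.5 for counts and, for other values, the SD of the same quantity over samples A, C, D and E (for spreads, over their pairs), which stands in for replicates. Without ORFs that have a bin of exactly 0, 41 ORFs were higher and 73 lower in the 5′IGR, 23 were lower in the ORF, and 66 were higher and 115 lower in the 3′IGR, and 313 and 660 ORFs were displaced upward in the 5′IGR and the 3′IGR. With medians over bins 130 were higher in the 5′IGR, with an SD of 0.123, and 684 were displaced upward in the 3′IGR. With H3 subtracted 446 were higher and 1132 lower in the 5′IGR, 184 and 301 in the ORF, and 563 and 1161 in the 3′IGR, with SDs of 0.244, 0.156 and 0.260. The histone list then had 0.00504, ribosomal proteins 0.194, long minus short genes -0.00885, and the displaced sets -0.0569 (5′IGR, lower), -0.0660 (ORF, lower), -0.0813 (3′IGR, higher) and -0.0518 (3′IGR, lower). The differences of PRM3 (-0.0093), YKL106C-A (-0.096), PRE3 (0.43), DOM34 (1.92) and YCL001W-B (0.33) turned their direction. The H3 difference alone had SDs of 0.219, 0.141 and 0.235, larger than those of Gcn5.

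With a size of 0.15 the counts were 327 higher and 505 lower in the 5′IGR, 89 and 128 in the ORF, and 466 and 610 in the 3′IGR, with 1237 and 778, 487 and 300, and 2200 and 437 displaced. With 0.5 they were 11 and 18, 3 and 6, and 9 and 13, with 46 and 41, 19 and 24, and 130 and 22 displaced, and displaced medians of 0.0183 (5′IGR, lower), -0.0939 (ORF, higher) and -0.0705 (3′IGR, higher). Quantile normalization gave 282 and 535 displaced in the 5′IGR, 86 displaced upward in the ORF, 656 and 335 in the 3′IGR, and a median of 0.0201 for the 5′IGR set lower in B. Removal of the trend with level gave 0.0273 and 0.0248 for the sets lower in B in the 5′IGR and the ORF. The central 40% of the ORF gave 44 higher and 63 lower, with an SD of 0.0829. Protein-coding genes alone gave 21 lower in the ORF. Without overlapping genes and chromosome ends 17 were lower in the ORF, and 90 and 83 were displaced there. Except where the construction gives it (fewer ORFs, another size), the cause was not tested. Leaving bins of exactly 0 out of the region means was chosen after seeing the data.

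No paired analysis was possible because the labels give no replicate numbers and each sample has 1 array, and leaving out a replicate was not possible either. No probe signals were used, so that signal over background is unknown here. The files do not separate the cultures, and a difference at 1 gene cannot be told apart from variation between arrays.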

Other observations

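Some groups of genes were followed in the ORF, where 58.5% of all ORFs had a difference below 0. Ribosome biogenesis genes, which build the ribosome but are not part of it, had a median difference between sample E and sample A of -0.033 in the ORF, against -0.0089 over all ORFs, with 104 of 137 members (75.9%) below 0 and none past 0.25 in either direction. In their 5′IGR the median was -0.00095. The 22 subunits of SAGA and ADA had an ORF median of -0.034, with 15 (68.2%) below 0. The COS family, found near chromosome ends, had -0.052 in the ORF over 12 members, and its near-identical copies can share probes.

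Some neighbouring genes had the same sign of difference. Over 5921 runs of 5 adjacent protein-coding genes the mean difference of all 38 bins had an SD of 0.0321. The run RSF1, EIS1, HOF1, YMR030W-A and ARP9 on chromosome XIII had a mean of -0.129 with none of its genes above 0. It counts the gap between HOF1 and YMR030W-A for both genes, with -1.12 in the 3′IGR of HOF1 and -0.70 in the 5′IGR of YMR030W-A. This mean therefore does not show separate neighbours with a like difference. The run RAX1, YOR302W, CPA1, ISW2 and BIL1 on chromosome XV had a mean of 0.128 with 5 of 5 genes above 0. Farther out lay the run CPP2, YDR210W-A, YDR210W-B, YDR210C-D and YDR210C-C (-0.144), with 1 gene above 0. So did the run ESF1, YDR365W-A, YDR365W-B, MOR1 and KEI1 (0.162), with 5 genes above 0. Both are on chromosome IV. Whether ORFs within these runs overlap or hold repeated sequence that shares probes was not checked, so their members may not be separate values. Runs overlap and these were picked from among the extremes, so these are values only.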
